A study of Homo sapiens with 8 samples.

Results

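The genes described here are TXNIP, its 4 expressed relatives ARRDC1, ARRDC2, ARRDC3 and ARRDC4, and the transcription factor pair MLXIP (MondoA) and MLX. They are 7 of the 61552 genes in the count and FPKM tables of an RNA sequencing study of TAF7 knockdown in breast cancer cells. The members were chosen by their symbols, and the choice was made with earlier results of these 8 libraries in view. Their levels and fold changes are therefore a description, and no p-value is given for any member.

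MDA-MB-231 is an established line from a triple-negative breast tumour, and MDA231-LM2 (LM2) is a derivative of it selected for growth as lung metastases. The libraries fall into LM2 with a hairpin against TAF7 (LM2 shTAF7), LM2 with a control hairpin (LM2 control), MDA-MB-231 with the TAF7 hairpin (MDA-MB-231 shTAF7) and MDA-MB-231 with the control hairpin (MDA-MB-231 control), with n = 2 libraries in each. The TAF7 hairpin is a single one, number 3 in the titles, and the controls, which the labels call WT, also carry a hairpin (shNC). All cells were grown in DMEM with fetal bovine serum and antibiotics, and the glucose concentration of the medium is not given in the sources used here. Libraries are numbered 2 and 3 in every group, and no label says that they came from separate cultures, so standard errors may not cover spread between cultures. They rest on a spread estimated jointly over the 4 groups and across genes, not on the 2 libraries of each group alone.

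TXNIP and the ARRDC proteins are alpha-arrestins, adaptors that bring ubiquitin ligases of the NEDD4 family to membrane proteins and promote their removal from the cell surface. TXNIP also binds thioredoxin and promotes internalisation of the glucose transporters GLUT1 and GLUT4. MondoA, the product of MLXIP, pairs with MLX, moves to the nucleus when glucose 6-phosphate accumulates, and activates TXNIP and ARRDC4 through carbohydrate response elements, which are paired E-box-like sites in their promoters. TAF7 is a subunit of TFIID, the complex that recognises core promoters for RNA polymerase II.

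The promoters are shown because TXNIP and ARRDC4 are the members with a known MondoA:MLX element, while ARRDC3 followed much of the same pattern of levels. Each is the run of 250 bases before an annotated start, 5′ to 3′ on the gene's strand, from RefSeq on GRCh38.p14, with matches to CACGTG (the E-box) or CACGNG (a half-site, either strand) in capitals. The motifs were chosen after the sequences were seen. The TXNIP promoter lies at chr1:145996580-145996829 on the minus strand, that of ARRDC4 at chr15:97960453-97960702 on the plus strand, and that of ARRDC3 (the upstream one of its 2 listed starts) at chr5:91383318-91383567 on the minus strand.
TXNIP: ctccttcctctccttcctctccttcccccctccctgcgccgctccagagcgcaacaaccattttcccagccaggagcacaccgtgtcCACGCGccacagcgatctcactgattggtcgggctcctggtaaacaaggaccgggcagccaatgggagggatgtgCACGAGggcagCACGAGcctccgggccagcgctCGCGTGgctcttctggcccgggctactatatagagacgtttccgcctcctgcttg
ARRDC4: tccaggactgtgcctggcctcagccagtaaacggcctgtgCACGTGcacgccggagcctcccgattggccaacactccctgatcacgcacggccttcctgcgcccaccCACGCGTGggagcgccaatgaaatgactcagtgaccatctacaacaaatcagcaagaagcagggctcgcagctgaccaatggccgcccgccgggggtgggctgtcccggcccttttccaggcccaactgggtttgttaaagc
ARRDC3: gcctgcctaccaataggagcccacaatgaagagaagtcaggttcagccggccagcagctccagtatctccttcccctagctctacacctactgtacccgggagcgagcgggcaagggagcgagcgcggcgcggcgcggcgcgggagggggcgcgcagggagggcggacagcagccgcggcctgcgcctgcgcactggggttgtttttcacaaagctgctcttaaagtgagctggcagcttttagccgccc

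In TXNIP, 4 half-sites lay between 163 and 50 bases before the start, and the middle 2 were copies of the same letters separated by 5 bases, from 88 to 72 bases before it. A pair of half-sites in this orientation and spacing was found in 16 of 35116 RefSeq promoters (0.0456%), and among the 10 listed starts of the 7 members it was found at TXNIP's first start alone, while TXNIP's second start had no half-site. As the pattern was set after the TXNIP sequence was seen, its rarity tests nothing. ARRDC4, which has a known element, held no such pair, so absence of the pair does not mean absence of an element. A half-site anywhere in the 250 bases was common, at 26.7% of promoters. The TXNIP promoter also held the letters TATATA 29 to 24 bases before the start, found in 3.73% of promoters, and a CCAAT box on each strand, found in 32% of promoters with both strands counted.

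ARRDC4 had an E-box from 210 to 205 bases before its start, which reads as a half-site on both strands, and a second place from 142 to 135 where half-sites on opposite strands overlap. An E-box was found in 6.34% of all promoters, and MLX itself had one from 50 to 45 bases before its start. The first ARRDC3 start had neither letters, its second start had a single half-site from 193 to 188, the first ARRDC2 start had 3 half-sites between 49 and 8, and ARRDC1 and MLXIP had none. These are matches of letters in a window of fixed length. Binding of MondoA or TAF7 was not measured, and gene counts do not show which of several starts was used.

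**Figure D1:**
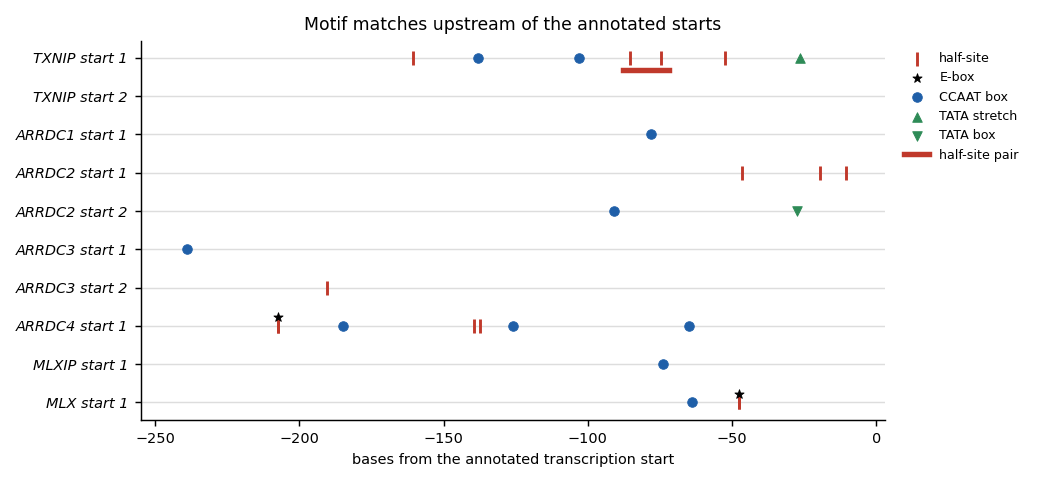
Positions of motif matches in the 250 bases upstream of the 10 annotated starts of the 7 members, in bases from the start (x axis), 1 start per row. Red ticks are half-sites, stars are E-boxes, blue points are CCAAT boxes, triangles are TATA letters, and the red bar marks the pair of half-sites 5 bases apart, which is drawn only at the first start of TXNIP, from 88 to 72 bases before it.

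The libraries held 17217776 to 20292291 counted reads, so that 1 read was worth 0.0488 to 0.0583 CPM (reads scaled to a common library total). LM2 control libraries had 24490 and 24762 genes with at least 1 read, against 22296 to 23434 in the other 6 libraries, and the part of this difference in the results below was not tested. TAF7 was at 45.1 and 45.8 FPKM (reads scaled to gene length and library total) in LM2 shTAF7, against 66.5 and 67.4 in LM2 control. MDA-MB-231 libraries had 35.4 and 35.2 FPKM with the TAF7 hairpin, against 60.2 and 61.8 with the control hairpin. The log2 fold change of TAF7 was -0.43 ± 0.07 (SE) in LM2 and -0.77 ± 0.07 in MDA-MB-231, a difference between the lines of 0.34 ± 0.09 (adjusted p = 0.00544), which was not past the threshold without MDA-MB-231 control replicate 3 (0.33). Of the markers listed for such a line, VIM was at 186 to 425 FPKM, CD44 at 32.2 to 55.9 FPKM and EGFR at 12.7 to 21.8 FPKM. The keratin genes KRT8 and KRT18 were also present in every library, at 47.8 to 77.9 and 84.8 to 113 FPKM. ESR1, PGR and CDH1 were at or below 0.03 FPKM. ERBB2 was at 5.18 to 6.77 FPKM and EPCAM at 2.22 to 4.27 FPKM. Of the 4 markers of other cells, the leukocyte gene PTPRC was at most 0.03 FPKM. The endothelial gene PECAM1 was at 0.12 to 0.88 FPKM, and the fibroblast genes COL1A1 and PDGFRB were at 0.44 to 3.24 and 0.14 to 0.69 FPKM. The 4 summed to 1.70 and 1.91 FPKM in LM2 shTAF7, against 3.75 and 4.38 FPKM in LM2 control, and to 1.74 and 1.82 FPKM in MDA-MB-231 shTAF7, against 1.51 and 1.75 FPKM in MDA-MB-231 control. Like TXNIP, this sum was highest in LM2 control, where most of it was COL1A1, at a mean of 2.905 FPKM against 0.475 to 1.48 in the other groups. PDGFRB was also highest there, at 0.68 FPKM beside 0.605 in MDA-MB-231 control. PECAM1 was highest in MDA-MB-231 shTAF7, at 0.865 FPKM against 0.46 in LM2 control. The part of these genes in the results was not tested.

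TXNIP was the most abundant alpha-arrestin in every library, and its level in LM2 differed with the hairpin. It was at 23.7 and 23.4 FPKM in LM2 shTAF7, against 89.4 and 89.0 FPKM in LM2 control, from 1595 and 1713 reads against 5679 and 5547. The shTAF7 libraries stood at 28.9% of the control level in the fit to counts, a log2 fold change of -1.79 ± 0.07 (SE). In this comparison 36 of the 10751 genes averaging 5 CPM or more had a lower log2 fold change.

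In MDA-MB-231 the order was the opposite. TXNIP was at 22.5 and 19.8 FPKM in MDA-MB-231 shTAF7, against 16.1 and 15.8 FPKM in MDA-MB-231 control, a log2 fold change of 0.42 ± 0.08 (SE). The groups did not overlap in either line. As RNA was measured in bulk, fewer TXNIP-expressing cells and less TXNIP RNA per cell cannot be told apart.

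Between the lines, TXNIP with the control hairpin was 5.48-fold higher in LM2 than in MDA-MB-231 (log2 fold change 2.45 ± 0.07). With the TAF7 hairpin the log2 fold change between the lines was 0.24 ± 0.07. In order of level, LM2 control stood far above LM2 shTAF7, then came MDA-MB-231 shTAF7 and MDA-MB-231 control. The gap between the nearest libraries of LM2 shTAF7 and MDA-MB-231 shTAF7 (23.4 and 22.5 FPKM) was smaller than the gap between the MDA-MB-231 shTAF7 libraries themselves. Without MDA-MB-231 shTAF7 replicate 3 this last difference no longer passed the threshold, with a log2 fold change of 0.13, nor did it on the FPKM scale (0.15 with a pseudocount of 1). The LM2 control libraries enter both the knockdown comparison in LM2 and the line comparison with the control hairpin, so these values of TXNIP share the same high measurements.

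**Figure D2:**
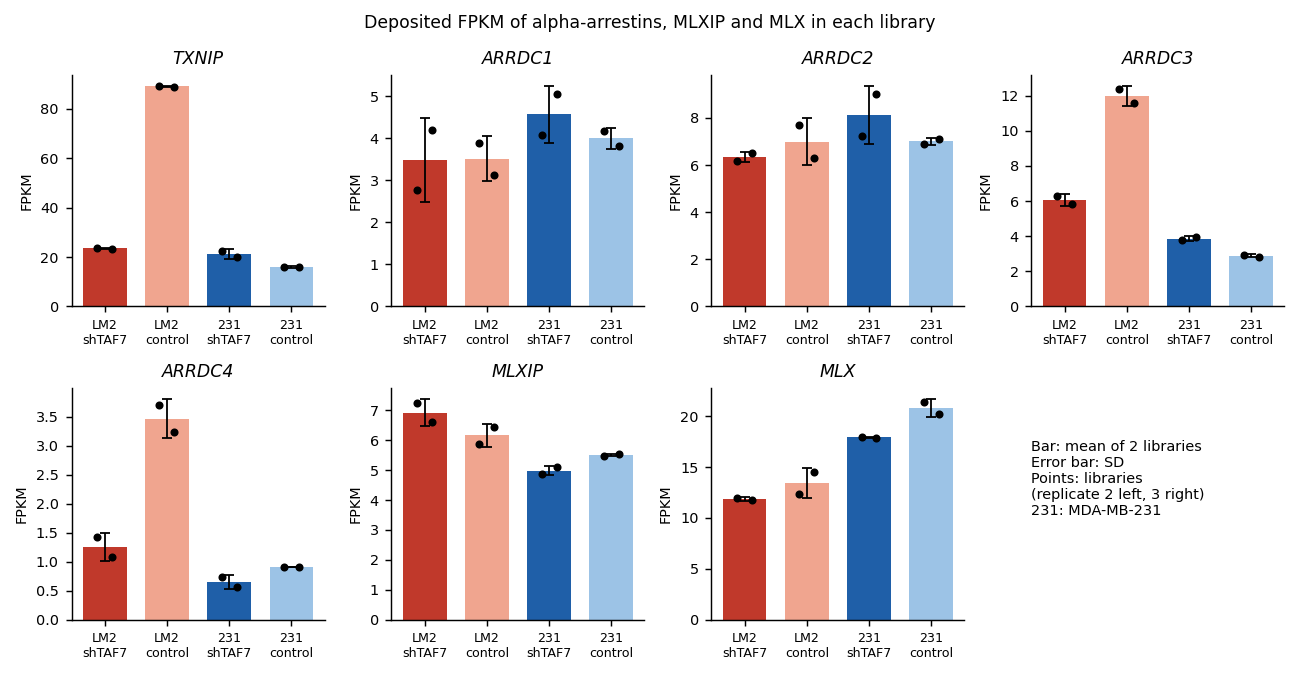
Deposited FPKM (y axis, from 0, a scale of its own for each gene) of the 7 members in the 4 groups. Bars are means of 2 libraries, error bars are SD and points are libraries. TXNIP, ARRDC3 and ARRDC4 are highest in both LM2 control libraries, while MLX is lower in all 4 LM2 libraries than in all 4 MDA-MB-231 libraries.

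The summed level of the 5 alpha-arrestins followed TXNIP, which is itself the largest part of that sum in every library. It was 40.7 ± 0.48 FPKM in LM2 shTAF7 and 115 ± 2.7 FPKM in LM2 control (SD, n = 2 each). In MDA-MB-231 the sum was 38.4 ± 0.07 FPKM in shTAF7 and 30.8 ± 0.41 FPKM in control. TXNIP made up 57.1% and 58.7% of this sum in LM2 shTAF7, against 76.3% and 78.6% in LM2 control. Its share was 51.6% and 58.7% in MDA-MB-231 shTAF7, against 51.8% and 51.9% in MDA-MB-231 control. The shares of the MDA-MB-231 groups overlapped and those of the LM2 groups did not.

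ARRDC4, the other established MondoA target of the family, had a pattern in LM2 like that of TXNIP. Its mean FPKM was the lowest of the 7 members in each group, but in LM2 control it was 3.47 ± 0.34 beside 3.51 ± 0.54 for ARRDC1 (SD, n = 2), with overlapping libraries. It was at 1.42 and 1.08 FPKM in LM2 shTAF7, against 3.71 and 3.23 FPKM in LM2 control, and its log2 fold change was -1.35 ± 0.16 (SE), or 39.2% of control. In MDA-MB-231 it did not share the direction of TXNIP: it was at 0.74 and 0.57 FPKM in MDA-MB-231 shTAF7, against 0.91 FPKM in both MDA-MB-231 control libraries. These values rest on 52 and 47 reads in shTAF7 against 70 and 65 in control, and the log2 fold change of -0.46 ± 0.22 did not pass the threshold. ARRDC4 was higher in LM2 than in MDA-MB-231 with either hairpin, with log2 fold changes of 1.02 ± 0.21 with the TAF7 hairpin and 1.91 ± 0.17 with the control hairpin. All 4 groups were separate, in the order LM2 control, LM2 shTAF7, MDA-MB-231 control and MDA-MB-231 shTAF7. In FPKM, neither the gap between the MDA-MB-231 groups nor that between LM2 shTAF7 and MDA-MB-231 control was wider than the gap between the shTAF7 libraries of the line.

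ARRDC3, reported to act as a tumour suppressor in basal-like breast cancer by taking integrin beta 4 from the cell surface, followed TXNIP in both lines with smaller differences in LM2. It was at 6.29 and 5.83 FPKM in LM2 shTAF7, against 12.4 and 11.6 FPKM in LM2 control, a log2 fold change of -0.86 ± 0.09 (SE). MDA-MB-231 libraries had 3.76 and 3.96 FPKM with shTAF7, against 2.94 and 2.83 FPKM with control, a log2 fold change of 0.44 ± 0.10. Between the lines the log2 fold change of ARRDC3 was 0.73 ± 0.09 with the TAF7 hairpin and 2.03 ± 0.09 with the control hairpin. All 4 groups were separate, in the same order as for TXNIP. An overlapping gene on the opposite strand, ARRDC3-AS1, had 1 read in each LM2 shTAF7 library against 10 and 6 reads in LM2 control, and 0 or 1 read in MDA-MB-231. It shares 145 exon bases with ARRDC3 in GENCODE release 29, which is 2.94% of the exon bases of ARRDC3.

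ARRDC1 and ARRDC2 differed little. ARRDC1, which recruits TSG101 to the plasma membrane to bud off microvesicles, was at 2.77 and 4.19 FPKM in LM2 shTAF7, against 3.89 and 3.13 FPKM in LM2 control. For MDA-MB-231 the levels were 4.08 and 5.05 FPKM with shTAF7, against 4.17 and 3.82 FPKM with control. The hairpin groups overlapped in both lines, and no comparison of ARRDC1 passed the threshold. The log2 fold change between the lines with the TAF7 hairpin, -0.30 ± 0.14 (SE), passed it in 7 of 15 alternative analyses. Among those were the fits without MDA-MB-231 control replicate 2 or 3, MDA-MB-231 shTAF7 replicate 2, LM2 control replicate 2 or LM2 shTAF7 replicate 3, with values of -0.64 to -0.30.

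ARRDC2, a less studied alpha-arrestin, was at 6.18 and 6.50 FPKM in LM2 shTAF7, against 7.70 and 6.30 FPKM in LM2 control, and these groups overlapped. It was at 7.25 and 9.01 FPKM in MDA-MB-231 shTAF7, against 6.90 and 7.12 FPKM in MDA-MB-231 control. Its log2 fold change was -0.02 ± 0.10 in LM2 and 0.23 ± 0.10 in MDA-MB-231, neither past the threshold. The value in MDA-MB-231 was 0.36 and passed the threshold without shTAF7 replicate 2, so that replicate 3 alone stood for the group. Between the lines with the TAF7 hairpin ARRDC2 was lower in LM2, by -0.28 ± 0.10 on the log2 scale. That call was lost without MDA-MB-231 shTAF7 replicate 3 (-0.13) and without LM2 shTAF7 replicate 2 (-0.23), and with DESeq2 (-0.27).

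The transcription factor pair did not move like its best known target. MLXIP was at 7.25 and 6.60 FPKM in LM2 shTAF7, against 5.89 and 6.43 FPKM in LM2 control, with a log2 fold change of 0.30 ± 0.07 (SE). It was thus higher in the LM2 group in which TXNIP and ARRDC4 were lower. The call was lost on the FPKM scale, where the log2 fold change was 0.15 with a pseudocount of 1. In MDA-MB-231 it was at 4.87 and 5.10 FPKM with shTAF7, against 5.48 and 5.53 FPKM with control, a log2 fold change of -0.13 ± 0.07 that did not pass the threshold. MLXIP was higher in LM2 than in MDA-MB-231 by 0.56 ± 0.07 with the TAF7 hairpin, and by 0.13 ± 0.07, not past the threshold, with the control hairpin. In level, LM2 shTAF7 came first, then LM2 control, MDA-MB-231 control and MDA-MB-231 shTAF7. The gap between the nearest LM2 libraries of the 2 hairpins (6.60 and 6.43 FPKM) was smaller than the gaps within either group.

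MLX, the partner of MondoA in DNA binding, was more abundant per length than MLXIP in every group, with a ratio of mean FPKM of 1.71 in LM2 shTAF7, 2.18 in LM2 control, 3.60 in MDA-MB-231 shTAF7 and 3.78 in MDA-MB-231 control. It was at 12.01 and 11.72 FPKM in LM2 shTAF7, against 12.4 and 14.5 FPKM in LM2 control, and the log2 fold change of -0.05 ± 0.08 (SE) did not pass the threshold. It was at 18.0 and 17.9 FPKM in MDA-MB-231 shTAF7, against 21.5 and 20.2 FPKM in MDA-MB-231 control, a log2 fold change of -0.20 ± 0.07. That call was lost when any 1 of the 4 MDA-MB-231 libraries was left out, with values of -0.25 to -0.16, and with no filter, with DESeq2 and on the FPKM scale (-0.21 to -0.20). Between the lines MLX was lower in LM2 with either hairpin, by -0.51 ± 0.08 with the TAF7 hairpin and -0.66 ± 0.08 with the control hairpin. MLX shares 770 exon bases, 18.1% of its exon bases, with PSMC3IP on the opposite strand, which had 304 to 396 reads per library against 930 to 1727 for MLX. The strand setting of the counting is not given in the sources used here, so reads from these overlapping genes cannot be told apart. TXNIP, ARRDC4 and MLXIP share no exon bases with another gene in that annotation.

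Counted at an adjusted p under 0.05 in the edgeR fit over 15923 genes, 1 member was higher and 3 were lower in LM2 shTAF7 than in LM2 control, where 21.8% of all genes were higher and 19.4% lower (3478 and 3092 genes, beside 1893 and 4014 with limma on log2(FPKM + 1)). In MDA-MB-231, 2 members were higher and 1 lower with the TAF7 hairpin, beside 12.6% higher and 12.9% lower among all genes. With the TAF7 hairpin, 4 members were higher and 2 lower in LM2 than in MDA-MB-231, beside 30.9% and 31.6% of all genes. With the control hairpin, 3 were higher and 1 lower, beside 32.2% and 32.1% of all genes. All 7 members passed the filter on low counts. Nothing is read from these counts, since the choice of members used the same contrasts.

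**Figure D3:**
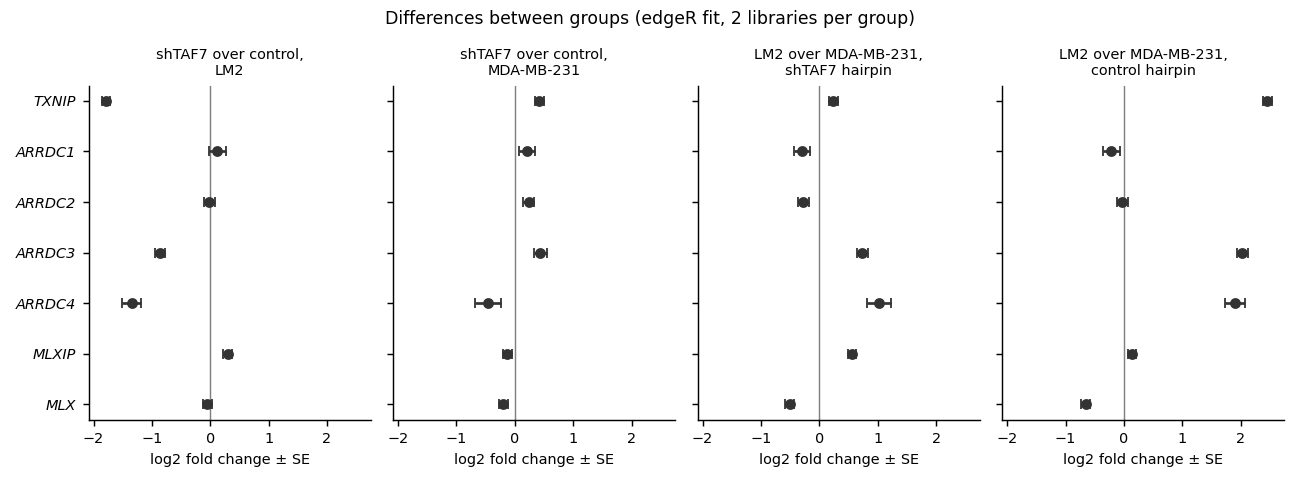
Log2 fold changes (x axis) of the 7 members in the 4 comparisons, with points for the edgeR estimate and bars for its standard error, from 2 libraries per group. TXNIP, ARRDC3 and ARRDC4 lie to the left of 0 for the TAF7 hairpin in LM2, at -1.79, -0.86 and -1.35, and TXNIP and ARRDC3 lie to the right of 0 in MDA-MB-231, at 0.42 and 0.44.

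The response to the hairpin was compared between the lines as the log2 fold change in LM2 minus that in MDA-MB-231. The difference was -2.21 ± 0.10 (SE) for TXNIP, -1.30 ± 0.13 for ARRDC3, -0.89 ± 0.28 for ARRDC4 and 0.42 ± 0.10 for MLXIP. It was -0.09 ± 0.20 for ARRDC1, -0.25 ± 0.14 for ARRDC2 and 0.15 ± 0.11 for MLX. Past the threshold, 1 member had a higher and 3 a lower response in LM2, beside 13.9% and 11.9% of all genes. The call of ARRDC4 was lost without MDA-MB-231 shTAF7 replicate 2 (-0.67), LM2 control replicate 2 (-0.77) or LM2 shTAF7 replicate 3 (-0.68), and with DESeq2 (-0.88). That of MLXIP was lost on the FPKM scale, at 0.27 with a pseudocount of 1. For TXNIP, 40 of the 10751 genes with at least 5 CPM had a lower value.

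Over the 8 libraries, the genes whose log2 CPM followed that of TXNIP most closely were CXCL1, a neutrophil-attracting chemokine (Pearson r 0.994), CTH, the cystathionine gamma-lyase of cysteine synthesis (0.993), ZSWIM6 (0.992), TGIF1, a homeobox repressor of TGF-beta signalling (0.991), and IFIT1, an interferon-induced gene (0.991). They were taken from 10744 genes averaging 5 CPM or more, and r is a description over 8 libraries that fall into 4 groups. CXCL1 averaged 12.9 CPM in LM2 shTAF7 and 78.0 CPM in LM2 control, and 10.97 CPM in MDA-MB-231 shTAF7 and 8.28 CPM in MDA-MB-231 control. The r of ARRDC3 with TXNIP was 0.940, with 134 genes higher, and that of ARRDC4 was 0.920, with 206 genes higher. MLXIP had an r of 0.21, ARRDC2 of -0.28, ARRDC1 of -0.45 and MLX of -0.68. The high LM2 control libraries are the same for every gene and weigh on each of these values.

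**Figure D4:**
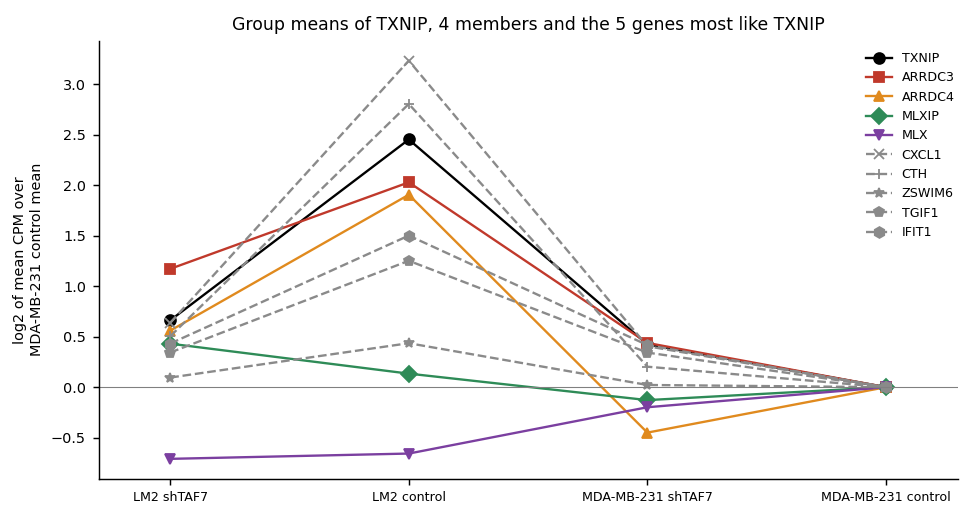
Group means of CPM on a log2 scale relative to MDA-MB-231 control (y axis) for TXNIP, ARRDC3, ARRDC4, MLXIP, MLX and the 5 genes most like TXNIP (dashed) in the 4 groups (x axis), with lines joining the means of 1 gene. ARRDC3 and ARRDC4 peak with TXNIP in LM2 control, MLXIP is highest in LM2 shTAF7, and MLX is lowest in the LM2 groups.

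Other genes of the pathway were taken from 6 lists of 68 genes, members left out, of which 61 could be tested. In LM2, 18 were higher and 15 lower in shTAF7 than in control, which is 29.5% and 24.6% beside 21.8% and 19.4% of all genes, with a median log2 fold change of 0.08 beside -0.02. In MDA-MB-231, 9 were higher and 14 lower, which is 14.8% and 23.0% beside 12.6% and 12.9%, with a median of 0.005 beside 0.008. In the MDA-MB-231 comparison 7 of the 23 calls held whichever library was left out, and in LM2 23 of 33 did.

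The partners and rivals of MondoA in the MLX and MAX network included genes with opposite signs in the lines, as described for TXNIP. Of 9 tested, 2 rose and 5 fell in LM2 shTAF7, and 3 rose and 2 fell in MDA-MB-231 shTAF7, of which 1 fall and no rise kept its call on the FPKM scale. The shares of all genes that rose and fell were 21.8% and 19.4% in LM2, and 12.6% and 12.9% in MDA-MB-231. MXD1, a repressor that pairs with MAX or MLX, was at 1.25 and 1.29 FPKM in LM2 shTAF7, against 3.79 and 3.53 FPKM in LM2 control, a log2 fold change of -1.40 ± 0.12 (SE; adjusted p = 1.86e-13). In MDA-MB-231 it was at 3.12 and 3.18 FPKM with shTAF7, against 2.61 and 2.56 FPKM with control, at 0.30 ± 0.11 (adjusted p = 0.0377). MXI1, a MAX-binding repressor, fell by 0.73 in LM2, and was at 0.27 in MDA-MB-231. Their responses differed between the lines by -1.70 ± 0.16 for MXD1 (adjusted p = 1.85e-11) and -1.01 ± 0.14 for MXI1 (adjusted p = 1.25e-07). In MDA-MB-231 the call of MXD1 was lost without any 1 of the 4 libraries of that line or LM2 control replicate 3 (0.28 to 0.31). That of MXI1 was lost there without control replicate 2 or 3 or shTAF7 replicate 2 (0.20 to 0.33). MXD3 and MXD4 rose in LM2 by 0.77 and 0.57. MLXIPL, which encodes ChREBP, the paralog of MondoA, was at 0.08 and 0.17 FPKM in LM2 shTAF7, against 0.60 and 0.34 FPKM in LM2 control. It had no more than 51 reads in any library, and its call in LM2 was lost without LM2 control replicate 2 (-1.25).

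The list of reported targets of MondoA or ChREBP, members left out, pools the targets of both factors and was chosen with earlier results known. Of 11 tested, 8 rose and 2 fell in LM2 shTAF7, beside 21.8% higher and 19.4% lower among all genes, with a median log2 fold change of 0.37. In MDA-MB-231 shTAF7, 2 rose and 2 fell, beside 12.6% and 12.9% of all genes, with a median of -0.06. On the FPKM scale with a pseudocount of 1, where the median of all genes in LM2 was shifted by -0.11, 4 of the 8 calls that rose were kept. SCD, the stearoyl-CoA desaturase, rose in LM2 by 0.67 ± 0.07 (SE; adjusted p = 3.17e-11). It was at 57.3 and 54.0 FPKM in LM2 shTAF7, against 36.9 and 39.7 FPKM in LM2 control. LDHA, lactate dehydrogenase A, rose by 0.47 in LM2 and by 0.23 in MDA-MB-231. The MDA-MB-231 call was lost without control replicate 2 or 3 or shTAF7 replicate 2 (0.18 to 0.23). KLF10, a glucose-induced zinc finger repressor, fell by 0.42 in LM2. RGS16, a regulator of G protein signalling, fell by 1.85 ± 0.54 in LM2 (adjusted p = 0.00448), the largest change in the list, from 7 and 3 reads in LM2 shTAF7 against 21 and 15 in LM2 control. That call was lost without LM2 control replicate 2 (-1.59) or LM2 shTAF7 replicate 3 (-1.32). FASN, the fatty acid synthase, rose by 0.41 ± 0.08 in LM2 (adjusted p = 2.38e-05) and fell by 0.35 in MDA-MB-231 (adjusted p = 0.000523). The LM2 rise of FASN was not past the threshold on the FPKM scale, at 0.28 with a pseudocount of 1. ACACA, the acetyl-CoA carboxylase that supplies FASN, fell in MDA-MB-231 by 0.37 and had a log2 fold change of 0.05 in LM2, not past the threshold.

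Of 13 genes of the thioredoxin system and TXNIP's partners, 5 rose and 2 fell in LM2 shTAF7, and 2 rose and 5 fell in MDA-MB-231 shTAF7. Among all genes 21.8% rose and 19.4% fell in LM2, and 12.6% rose and 12.9% fell in MDA-MB-231. DDIT4 (REDD1), an inhibitor of mTORC1 that forms a complex with TXNIP, changed in the same direction as TXNIP with the hairpin in both lines. Between the lines with the TAF7 hairpin it was lower in LM2, at -0.57 ± 0.07 (SE), where TXNIP was at 0.24. DDIT4 was at 72.7 and 78.7 FPKM in LM2 shTAF7, against 181 and 177 FPKM in LM2 control, a log2 fold change of -1.11 ± 0.07 (SE; adjusted p = 3.54e-18). In MDA-MB-231 it was at 121 and 118 FPKM with shTAF7, against 97.8 and 100.5 FPKM with control, and rose by 0.28 there, a call lost without control replicate 2 (0.26). TXN, the thioredoxin that TXNIP binds, rose in LM2 by 0.57 ± 0.07 (adjusted p = 8.45e-09), at 437 and 469 FPKM in shTAF7 against 348 and 319 FPKM in control. It also rose in MDA-MB-231, where TXNIP was higher with shTAF7 too, by 0.28 ± 0.07 (adjusted p = 0.00261). That call was lost without control replicate 2 or 3 or shTAF7 replicate 3 (0.21 to 0.28). It was also lost on the FPKM scale (0.26 with a pseudocount of 1). TXNRD1, the cytosolic thioredoxin reductase, fell in MDA-MB-231 by 0.42 ± 0.07 (adjusted p = 1.03e-05). Its log2 fold change in LM2 was 0.19, past the threshold, but not without MDA-MB-231 control replicate 2 or 3 or LM2 control replicate 2 (0.17 to 0.20), nor in the fit to the 4 LM2 libraries (0.18). On the FPKM scale it was 0.06 with a pseudocount of 1, also not past the threshold.

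Of 12 tested genes of glucose entry and glucose 6-phosphate handling, the steps upstream of MondoA, 3 rose and 2 fell in LM2 shTAF7 and 1 rose and 1 fell in MDA-MB-231 shTAF7. These counts stand beside 21.8% higher and 19.4% lower among all genes in LM2, and 12.6% and 12.9% in MDA-MB-231. GPI, which converts glucose 6-phosphate to fructose 6-phosphate, rose in LM2 by 0.51 (adjusted p = 3.59e-08) and SLC37A4, the glucose 6-phosphate transporter, by 0.42. HK2, a hexokinase, rose there by 0.28, a call lost on the FPKM scale (0.14 with a pseudocount of 1). HKDC1, a hexokinase domain gene, was at 0.49 and 0.71 FPKM in LM2 shTAF7, against 1.34 and 1.29 FPKM in LM2 control. It fell by 0.99 ± 0.26 (adjusted p = 0.00172), a call lost without LM2 shTAF7 replicate 2 (-0.73). SLC2A3, the transporter GLUT3, fell by 0.22, a call lost without LM2 control replicate 3 or LM2 shTAF7 replicate 2 (-0.17 for both), with no filter (-0.19) and with DESeq2 (-0.22).

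Among 13 NEDD4-family ligases and ESCRT partners, which act with alpha-arrestins, 1 rose and 4 fell in LM2 shTAF7, and 4 fell with none higher in MDA-MB-231 shTAF7, of which 1 (ITCH) kept its call on the FPKM scale. All genes together had 21.8% higher and 19.4% lower in LM2, and 12.6% and 12.9% in MDA-MB-231. NEDD4L fell by 0.59 (adjusted p = 1.51e-09) and NEDD4 by 0.44 (adjusted p = 8.02e-07) in LM2, and the ATPase gene VPS4A rose by 0.44. In MDA-MB-231, ITCH, the ligase that ubiquitinates TXNIP, fell by 0.31 (adjusted p = 0.00146), a call lost without control replicate 2 (-0.23) or shTAF7 replicate 3 (-0.19).

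Of 8 reported cargoes tested, EGFR and SLC2A3 fell in LM2 with none higher, and in MDA-MB-231 ITGB4 rose and EGFR fell. For comparison, 21.8% of all genes were higher and 19.4% lower in LM2, and 12.6% and 12.9% in MDA-MB-231. ITGB4, a cargo of ARRDC3, rose in MDA-MB-231 by 0.58 ± 0.07 (SE; adjusted p = 5.92e-09). Its log2 fold change in LM2 was -0.20 ± 0.10, not past the threshold. ITGB4 was lower in LM2 than in MDA-MB-231 by -3.60 ± 0.08 with the TAF7 hairpin and -2.82 ± 0.08 with the control hairpin. SLC2A1, the transporter GLUT1, had log2 fold changes of 0.11 ± 0.07 in LM2 and 0.02 ± 0.07 in MDA-MB-231, neither past the threshold. Between the lines SLC2A1 was lower in LM2, by -0.74 ± 0.07 with the TAF7 hairpin and -0.83 ± 0.07 with the control hairpin. EGFR fell in both lines, by 0.24 in LM2 and 0.44 in MDA-MB-231. These are RNA levels, and neither cargo protein at the cell surface nor its removal by arrestins was measured.

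**Figure D5:**
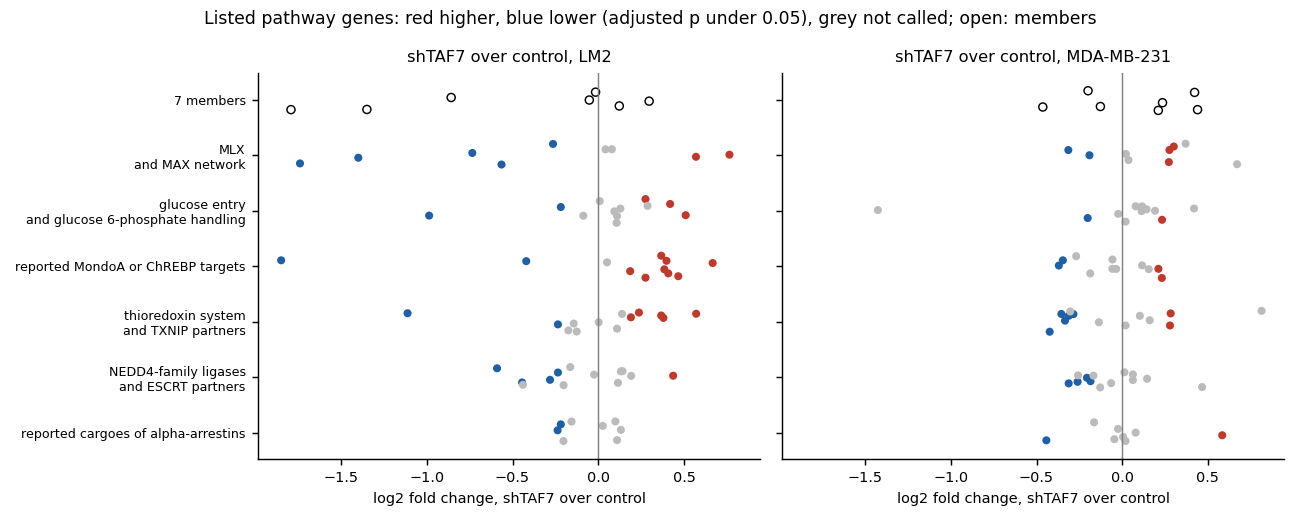
Log2 fold changes of shTAF7 over control (x axis) in LM2 (left) and MDA-MB-231 (right) for the 7 members (open circles) and the tested genes of the 6 lists (rows), red where higher and blue where lower at an adjusted p under 0.05, grey otherwise. In LM2 RGS16 (-1.85), TXNIP (-1.79), MLXIPL (-1.74) and MXD1 (-1.40) lie far to the left. There 8 of 11 reported targets are red, beside 21.8% of all genes, and 4 of the 8 kept their call on the FPKM scale.

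The other arrestins had patterns of their own. ARRDC5 had 0 or 1 read in every library, at most 0.03 FPKM, and was not tested. ARRB1, the gene of beta-arrestin 1, was at 0.65 and 0.62 FPKM in LM2 shTAF7, against 1 and 1.07 FPKM in LM2 control, and at 3.25 to 4.31 FPKM in the 4 MDA-MB-231 libraries. Thus it was low in the line in which TXNIP with the control hairpin was high. ARRB2, beta-arrestin 2, was at 7.92 to 8.98 FPKM in the LM2 libraries, against 3.61 to 4.04 FPKM in the MDA-MB-231 libraries.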

How the data were processed

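RNA was enriched for mRNA, per the labels' protocols, and the authors deposited whole-number counts per gene, not normalized, together with FPKM values scaled by gene length and library total as judged from the values. STAR 2.7.10a and genome build hg19 are named in the submitters' processing notes, without a role. No label or file header read here names the counting program, its strand setting or the annotation. All 8 libraries (2 per group, n = 4 groups) entered 1 edgeR quasi-likelihood fit (R 4.3.3, edgeR 4.0.16) with TMM scaling, filterByExpr (15923 of 61552 genes tested) and Benjamini-Hochberg adjustment over all of them, with 4 residual degrees of freedom. Genes were called at an adjusted p under 0.05. Log2 CPM used a prior count of 2. Replicates of a group differed by more than sampling noise (chi-square per degree of freedom 2.34 to 7.26), so none was a copy of the other's counts. This does not tell whether they came from separate RNA or separate cultures.

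The members and the 6 pathway lists were chosen with earlier results of these data known. A listed gene is not reported here and enters no list count. The text names all 7 members and, from each list, up to 4 called genes per comparison with the largest fold change among genes with a mean of at least 5 CPM. MLXIPL, RGS16, HKDC1, and DDIT4, TXNRD1, ACACA, TXN and ITGB4 in 1 line each, fall outside that rule and were chosen after their values were seen. So were DDIT4 between the lines with the TAF7 hairpin, KLF10 in the difference between the responses, and the knockdown values of SLC2A1 in both lines. Alternatives were RLE scaling, no filter, a replicate block, limma 3.58.1 on log2(FPKM + 1) and log2(FPKM + 0.1), DESeq2 1.42.0, fits to the 4 libraries of a comparison, and leaving out each library. Scripts were tested on simulated data. Promoters were matched by symbol to RefSeq (7 of 7 members, 10 starts) and overlaps taken from GENCODE release 29, on another build than the counts.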

Additional observations from a re-analysis of the deposited data

Results flagged for a closer look

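These results had a response to the TAF7 hairpin that differed between the lines in the edgeR fit over all genes, given as the log2 fold change in LM2 minus that in MDA-MB-231. Of the 61 pathway genes tested, 13 were higher and 9 lower in this difference (21.3% and 14.8%), beside 13.9% and 11.9% of all genes. Not all of them are named here. Among the members, which were chosen with this contrast in view, the difference was -2.21 for TXNIP, -1.30 for ARRDC3, -0.89 for ARRDC4 and 0.42 for MLXIP. The call of ARRDC4 was lost in 4 of 14 alternatives (-0.88 to -0.67), and that of MLXIP on the FPKM scale (0.27 with a pseudocount of 1). In the MLX and MAX network it was -1.70 for MXD1, -1.01 for MXI1 and -0.37 for MYC, a call that MYC lost without MDA-MB-231 control replicate 3 (-0.32). In the thioredoxin group DDIT4 differed by -1.39, TXNRD1 by 0.61, TXN2 by 0.52 and TXNRD2 by 0.47. Of the 11 tested MondoA or ChREBP targets, 5 were higher and 1 lower in this difference. The value was 0.75 for FASN, 0.70 for SCD, 0.55 for ACLY and 0.44 for PFKFB3. The lower one was KLF10 at -0.36, a call lost without MDA-MB-231 control replicate 3 or shTAF7 replicate 2 (-0.33 to -0.26). GPI stood at 0.37. Among ligases and ESCRT partners HECW2 differed by -0.67, NEDD4L by -0.41, VPS4A by 0.42 and WWP2 by 0.36. The call of HECW2 was lost when any 1 of 6 libraries was left out (-0.75 to -0.44), and that of WWP2 when any 1 of 3 was (0.27 to 0.33). Both were also lost with DESeq2 (-0.65 and 0.37) and on the FPKM scale (-0.16 and 0.21 with a pseudocount of 1), and HECW2 also with no filter (-0.64). On the FPKM scale PFKFB3 and TXNRD2 lost their calls as well (0.31 and 0.29). Of the cargoes, ITGB4 differed by -0.79. The LM2 control libraries, which had the most genes with reads (24490 and 24762), enter every one of these values, and their part in them was not tested.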

How the results depend on the processing

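Of 518 values of the members under alternatives, 472 kept their direction and their side of the threshold, and the log2 fold changes of TXNIP with the TAF7 hairpin stayed past it in all 15 alternatives in each line (-1.92 to -1.76 in LM2, 0.31 to 0.52 in MDA-MB-231). The count of genes called in MDA-MB-231 was 4070, and 2031 to 4408 with 1 library left out, with 2031 without control replicate 2, 2279 without control replicate 3 and 2362 without shTAF7 replicate 3, where fewer libraries were compared. Replicate numbers were shared across groups, but deviations of same-numbered libraries had correlations of -0.14 to 0.07, so they were taken as names only, and a fit with a replicate block called 4053 genes in MDA-MB-231, 6554 in LM2 and 4128 for the difference, and 7 in place of 6 members between the lines with the TAF7 hairpin. With limma on log2(FPKM + 1) the median of all genes in LM2 shifted by -0.11, and 1893 genes were higher and 4014 lower in shTAF7 (3478 and 3092 in the count fit); for the difference between the lines 998 were higher and 2096 lower (2221 and 1892 in the count fit). With 47 to 266 reads per library, ARRDC4 was the member most limited by depth.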
